A study of Arabidopsis thaliana with 48 samples.

Results

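The nuclear photosystem and light-harvesting genes were chosen by name, as the genes for the chlorophyll-binding antenna proteins and the nucleus-encoded core subunits of both photosystems. The set held 43 of the 34262 genes in the count table. It comprised 6 *LHCA* genes for the antenna of photosystem I, 14 *LHCB* genes for the antenna of photosystem II, 12 photosystem I subunit genes (*PSA*) and 11 photosystem II subunit genes (*PSB*). All 43 passed the filter on low counts, a mean of at least 1 CPM (the count scaled to the library total) over all libraries.

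The libraries came from excised leaves of 21-day-old *Arabidopsis thaliana* plants. After excision the leaves spent 24 h in the dark at 16 °C and were then placed in continuous light at 22 °C. Leaves were collected every 0.5 h at 16 time points labelled 19.5 to 27 h, with 3 replicates each (48 libraries), and every library shared this dark and cold treatment. The labels count time after treatment and name no genotype, and there was no attached leaf, no leaf without the treatment and no second line among these libraries, so every comparison is between time points of 1 treatment. The study searched this time course for transcripts that oscillate within a few hours, the excision ultradian rhythm (UR), and *CAB2* (*LHCB1.1*, AT1G29920) supplied the promoter of 1 of its luciferase reporters.

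In photosynthesis, light absorbed by antenna chlorophyll is passed to the reaction centres of photosystem II and photosystem I, which drive electrons from water to ferredoxin. The LHC antenna proteins are made from nuclear genes, imported into the chloroplast and inserted into thylakoid membranes, whereas most reaction centre proteins are made in the plastid. Transcripts of the antenna genes are among the most abundant in green leaves, and light, plastid signals and the circadian clock are all known to act on them.

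The 5 *LHCB1* genes encode nearly the same protein, the main subunit of the trimeric antenna LHCII, and the 3 *LHCB2* genes encode its second subunit. Stretches just upstream of 4 of these genes are shown because the levels described below differ most clearly among them: the reporter gene *LHCB1.1*, the most abundant member *LHCB1.3*, and *LHCB1.4* and *LHCB2.3*, the *LHCB* genes with the largest falls. Each stretch covers the 150 bases before the gene start annotated by RefSeq in TAIR10.1, 5′ to 3′ on the strand of the gene, with *LHCB1.1* and *LHCB1.3* on chromosome 1, *LHCB1.4* on chromosome 2 and *LHCB2.3* on chromosome 3. Capitals mark matches to 1 of 5 short motifs on either strand: the G-box CACGTG, the CCA1-binding site AAAAATCT, the evening element AAATATCT, the I-box GATAAG and CCAATC, which holds the CCAAT core.
LHCB1.1: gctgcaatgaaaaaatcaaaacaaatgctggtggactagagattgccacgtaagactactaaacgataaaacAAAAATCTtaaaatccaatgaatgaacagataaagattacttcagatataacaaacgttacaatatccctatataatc
LHCB1.3: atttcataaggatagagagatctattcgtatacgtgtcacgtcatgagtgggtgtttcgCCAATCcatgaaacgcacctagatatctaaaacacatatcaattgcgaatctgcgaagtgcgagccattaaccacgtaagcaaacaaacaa
LHCB1.4: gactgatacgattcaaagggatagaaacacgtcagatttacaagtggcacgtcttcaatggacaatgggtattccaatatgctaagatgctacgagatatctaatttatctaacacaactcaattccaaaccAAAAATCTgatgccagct
LHCB2.3: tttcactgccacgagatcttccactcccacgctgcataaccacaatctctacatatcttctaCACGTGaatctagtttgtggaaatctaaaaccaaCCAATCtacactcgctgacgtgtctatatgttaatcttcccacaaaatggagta

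*LHCB1.1* carried the CCA1-binding motif from position -78 and *LHCB1.4* carried it from -18, counted back from the gene start. *LHCB1.3* held CCAATC from -91, and *LHCB2.3* held the G-box from -88 and CCAATC from -54. Over the 250 bases upstream, the G-box occurred in 9 of 43 members (20.93%) and in 6.49% of 27443 protein-coding genes. CCAATC occurred in 11 members (25.58%) against 10.23% of all genes, and these were 7 *LHCB*, 3 *LHCA*, 0 *PSA* and 1 *PSB* genes. The CCA1-binding motif was found in 5 members (11.63%, against 6.69%), the I-box in 9 (20.93%, against 12.29%) and the evening element only in *LHCA5* (2.33%, against 4.79%). These are counts of letters in a window around annotated starts and were not tested.

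The 43 genes together took 6.98% to 25.8% of a library, with a median of 17.5%. Of the 10 most abundant genes in a library, 3 to 10 were members. The mean share of the 3 libraries was 18.8% at 19.5 h and 14.4% at 27 h, with its highest value of 24.3% in the 21.5 h libraries and its lowest of 12.0% in those of 26 h. The last value rests on 1 library, since without replicate 2 the 26 h mean was 14.6%, above those of 24 and 27 h, and 24 h was the lowest. The *LHCB* genes made up the larger part of it, with 3.96% to 16.8% of a library, followed by *LHCA* (1.03% to 3.47%), *PSB* (1.08% to 3.28%) and *PSA* (0.912% to 2.80%). Library totals ran from 23572988 to 38763552 counts, and no member was at 0 in any library.

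**Figure D1:**
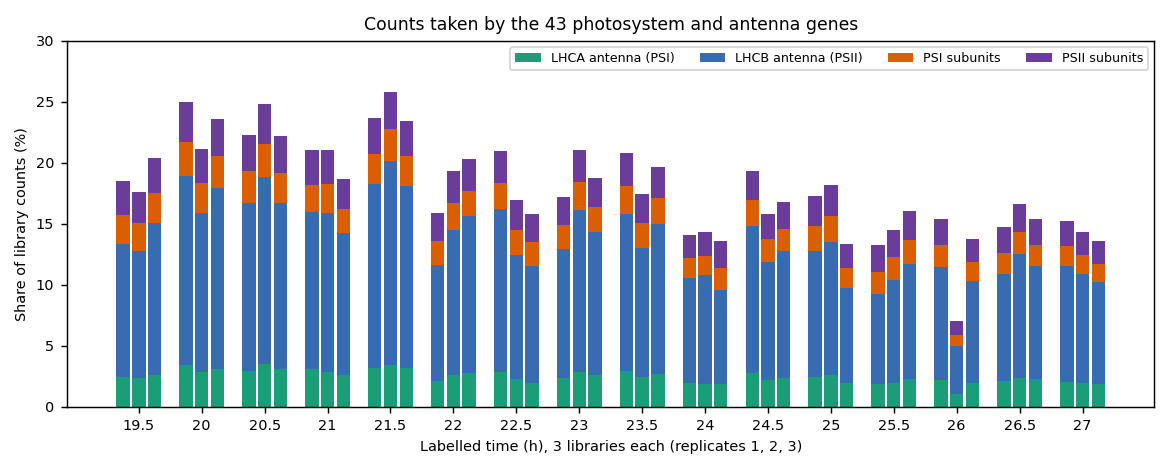
Share of library counts (%) taken by the 43 member genes in each of 48 libraries, grouped by labelled time (h) and stacked by gene class. The bars are highest at 21.5 h (mean 24.3%) and the single bar for replicate 2 at 26 h stands at 6.98%, below its partners at 15.4% and 13.8%.

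In all, 3 libraries stood apart from their partners, and the slow trend, the course over time and the variation by period are given with and without them. In the 26 h replicate 2, 42 of 43 members lay below both other 26 h libraries, with a median log2 ratio of -0.99 to the mean of the other two. The summed level of 6 mesophyll markers, the Rubisco small subunits, Rubisco activase and carbonic anhydrase 1, was 5019 CPM in that library, against 10240 and 8447 CPM in its partners. The 22.5 h replicate 1 and the 24 h replicate 3 differed from their partners in either direction by gene, with 26 and 31 members above both partners and 13 and 9 below both. The circadian clock gene *LHY*, which encodes a MYB factor, was at 19.8 CPM in that 22.5 h library against 341 and 360 CPM, and at 272 CPM in that 24 h library against 41.0 and 32.5 CPM. The same mesophyll markers summed to 9105 CPM against 19689 and 17252 CPM at 22.5 h and to 18445 CPM against 6748 and 6133 CPM at 24 h. By *LHY* and by these markers, the 22.5 h replicate 1 lay nearer the partners of the 24 h replicate 3 than its own, and the reverse also held. By the share of counts that the members took, neither held. That share was 21.0% in the 22.5 h replicate 1, against 17.0% and 15.8% in its partners. It was 13.6% in the 24 h replicate 3, against 14.1% and 14.3% in its partners. The 21 h libraries were at 21.0%, 21.0% and 18.7%. The part of tissue makeup, leaf state or handling in these differences was not tested.

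All 43 members fell over the window, and none rose. The slow trend is the log2 change between 19.5 and 27 h along a fitted line, from edgeR's quasi-likelihood model after TMM scaling, and a gene is called at an adjusted p under 0.05. Of all 17568 genes tested, 27.1% fell and 27.9% rose. The median change of the members was -1.07, a level 2.11-fold lower at the end, whereas the median over all tested genes was 0.01. A fitted fall of more than 1 on the log2 scale was seen in 27 members (62.8%) and in 3.36% of tested genes. The slope was below 0 for all 43 genes within the libraries of each of the 3 replicate numbers. The labels do not say whether a replicate number marks a series over time. The largest adjusted p among the members was 0.0023 (*PSAD2*, edgeR).

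The fall depended in size on how libraries were scaled. Scaling by library totals alone moved the median change of all tested genes to 0.32 and the share of rises among called genes from 50.7% to 87.1%. The median of the members was then -0.76. The gap between members and all genes was -1.09 under both scalings, since rescaling shifts all genes by nearly the same amount. With library totals 42 members fell, against 9.31% of tested genes (62.7% rose), and *PSAD2* at -0.31 did not pass (edgeR adjusted p = 0.058). Without the 3 libraries above all 43 fell, with a median of -0.98. In leaf RNA, fewer mesophyll cells and less RNA of these genes per cell cannot be told apart. All 6 mesophyll markers fell too, from -0.99 for *RBCS1A* to -3.09 for *CA1*. With TMM, so did 3 of 3 tested epidermis markers and 4 of 6 vasculature markers, while of 6 guard cell markers 3 fell and 1 rose. The 6 mesophyll markers are themselves photosynthesis genes, and no count of cells was made. Their summed level was 20471, 22396 and 18624 CPM in the 20.5 h libraries and 10290, 9640 and 8623 CPM in those of 21 h.

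**Figure D2:**
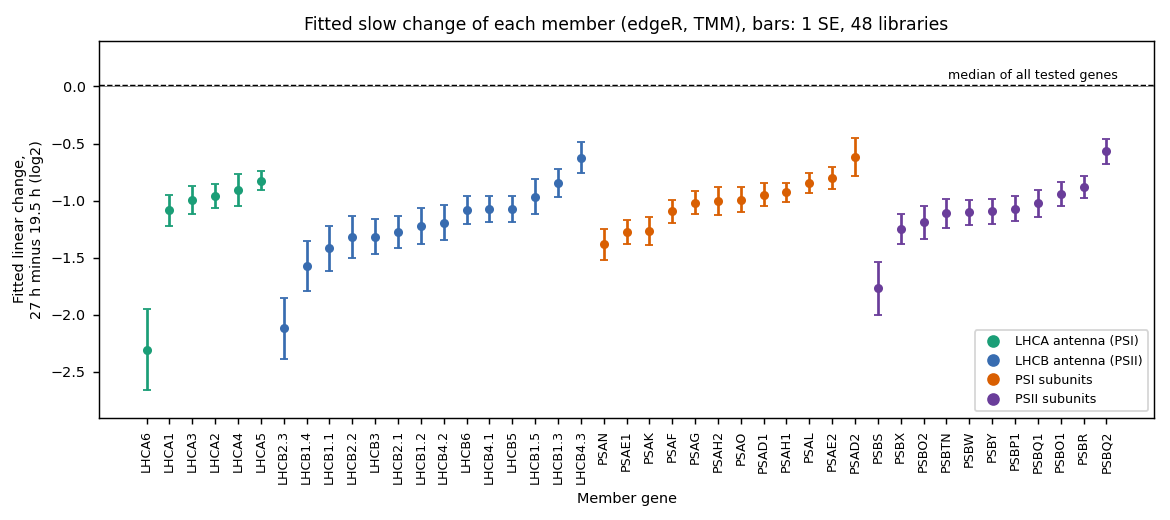
Fitted linear change from 19.5 to 27 h (log2) for each member, with 1 SE, coloured by class; the dashed line is the median of all tested genes. All 43 points lie below 0, from -2.31 for *LHCA6* to -0.57 for *PSBQ2*.

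The course was not a straight decline. Relative to each gene's own mean over the 16 time points, the median member began at 1.12 (19.5 h) and reached 1.35 (20.5 h), 1.08 (21 h) and 1.23 (21.5 h). Later it was down to 0.77 (24 h), 0.66 (26 h) and 0.76 (27 h). At 20.5 h all 43 members were above their own mean, at 24 h 1 was (*LHCB4.3*), and at 26 and 27 h none was. *LHCB4.3* was above its mean at 24 h through replicate 3, with 10.01 CPM against 3.75 and 3.61 CPM. The highest time mean fell at 20 to 21.5 h for 39 members and at 19.5 h for the other 4, *LHCA5*, *LHCA6*, *LHCB4.3* and *PSBS*. The lowest came at 26 h for 30 members and at 24 h for 7, but the time of the lowest mean depended on the 3 libraries that stood apart. Without the 26 h replicate 2 it was 27 h for 23 members, 24 h for 12 and 26 h for 2, and the median member stood at 0.79 at 26 h. Without all 3 libraries it was 24 h for 21 members, 27 h for 13 and 26 h for 2. The median member was then at 0.72 (24 h), 0.79 (26 h) and 0.75 (27 h), and *LHCB1.4*, *PSAE2* and *PSBQ2* were above their own mean at 24 h. The times of the highest means were the same 20 to 21.5 h for 39 members in both cases. *LHCB1.5* and *PSBQ2* had a higher mean CPM at 27 h than at 19.5 h although their fitted lines fell. Both were highest at 21 or 21.5 h. The means are scaled by library totals and the lines by TMM. With library totals the fitted changes of these 2 genes were still below 0, at -0.65 and -0.26.

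**Figure D3:**
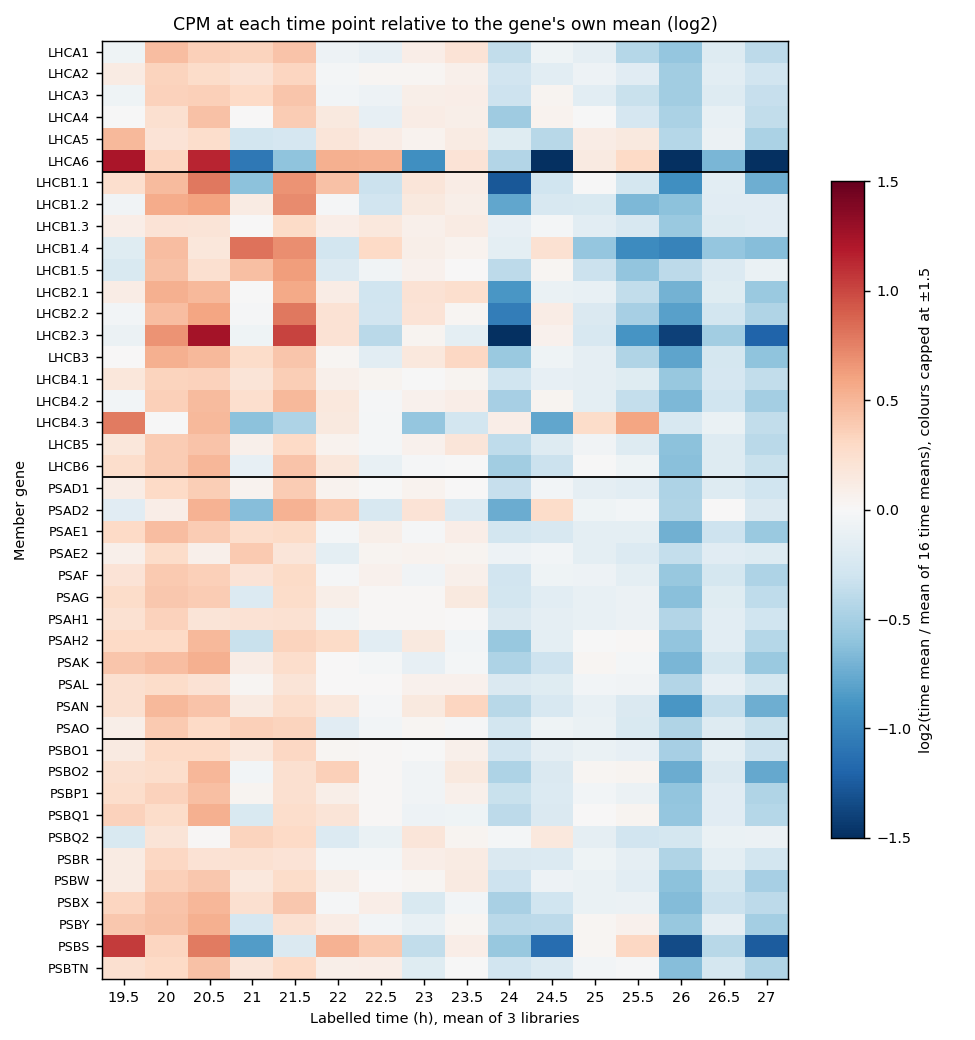
Mean CPM of 3 libraries at each labelled time (h) relative to the mean of the gene over 16 time points (log2), for 43 members in 4 blocks (*LHCA*, *LHCB*, *PSA*, *PSB*). Most rows turn from red before 22 h to blue from 24 h on. At 21 h 28 of 43 members were above their own mean. Pale or blue cells at 21 h occur in several rows, *LHCB1.1*, *LHCB4.3*, *PSAD2*, *PSBS* and *LHCA6* among them.

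Among the 6 *LHCA* genes the median change was -0.97. *LHCA1* to *LHCA4* encode the main antenna belt of photosystem I, and of these *LHCA1* (AT3G54890) fell most, by 1.09 (SE 0.13), and *LHCA4* (AT3G47470), the most abundant, fell by 0.91 (SE 0.14). *LHCA2* (AT3G61470) and *LHCA3* (AT1G61520) lay between them at -0.96 and -0.99. *LHCA4* was at 8171, 7141 and 8355 CPM in the 3 libraries at 19.5 h and at 6057, 6099 and 6185 CPM at 27 h. The libraries of these time points did not overlap.

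*LHCA6* (AT1G19150), a rare antenna protein that joins photosystem I to the NADH dehydrogenase-like complex, had the largest fall of all members at -2.31 (SE 0.36). It stood at 48.2, 38.3 and 28.5 CPM at 19.5 h and at 3.89, 4.19 and 4.49 CPM at 27 h, and these libraries did not overlap. Between these ends it went up and down. High means were 36.4, 23.8, 19.0 and 20.2 CPM in the libraries of 20.5, 22, 23.5 and 25.5 h. Low means were 7.81, 8.66, 4.96 and 4.24 CPM in those of 21, 23, 24.5 and 26 h. The 26 h libraries held 6.17, 1.29 and 5.25 CPM, the lowest being replicate 2. Its partner *LHCA5* (AT1G45474), likewise rare and used in the same linkage, fell less, by 0.82 (SE 0.085), from 109, 109 and 114 CPM at 19.5 h to 60.1, 54.9 and 55.5 CPM at 27 h.

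The 14 *LHCB* genes had a median change of -1.21. *LHCB1.3* (AT1G29930) was the most abundant transcript of all 34262 genes by mean CPM, and *LHCB1.5*, *LHCB3*, *LHCA4* and *LHCB1.4* took ranks 2 to 5. Per transcript length, *LHCB1.3* had a mean of 29005 RPKM, *LHCB1.5* 18537 RPKM, *LHCB1.4* 5928 RPKM, *LHCB1.2* 5390 RPKM and *LHCB1.1* 4202 RPKM. *LHCB2.2* and *LHCB2.1* followed at 3876 and 3621 RPKM, and *LHCB2.3* was lower, at 476 RPKM.

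The near-identical copies limit what can be said of single genes. The coding sequences of *LHCB1.1*, *LHCB1.2* and *LHCB1.3* were 95.65% to 96.39% identical, and these genes are neighbours on chromosome 1. *LHCB1.4* and *LHCB1.5* are divergent neighbours on chromosome 2 with 91.54% identity. At most 4.44% of the 100-base windows of an *LHCB1* transcript also occurred in another gene, against 9.87% and 12.36% for *LHCB2.1* and *LHCB2.2*, and 0% for every other member. How reads that fit 2 genes were counted is not given in the sources used here, so the split among these copies is uncertain. The windows count exact matches of 100 bases over whole transcripts, so they set no upper limit on reads that fit 2 genes.

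*LHCB1.1* (AT1G29920) fell by 1.42 (SE 0.20). It was at 5913, 5741 and 8065 CPM at 19.5 h, and its 20.5 h libraries held 9609, 11249 and 7719 CPM. At 21 h it stood at 4207, 3777 and 2823 CPM, and at 21.5 h at 9276, 9868 and 7265 CPM. All 3 libraries of 21 h were thus below all libraries of the time points on either side.

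*LHCB1.4* (AT2G34430) was high at 21 h. It was at 8362, 9247 and 8671 CPM at 20.5 h, at 13714, 14368 and 12993 CPM at 21 h, at 10349, 13678 and 13894 CPM at 21.5 h and at 4856, 7200 and 7295 CPM at 22 h. The 3 libraries of 21 h lay above all libraries of 20.5 and 22 h and overlapped those of 21.5 h. Over the whole window it fell by 1.57 (SE 0.22), to 5613, 4782 and 4608 CPM at 27 h.

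**Figure D4:**
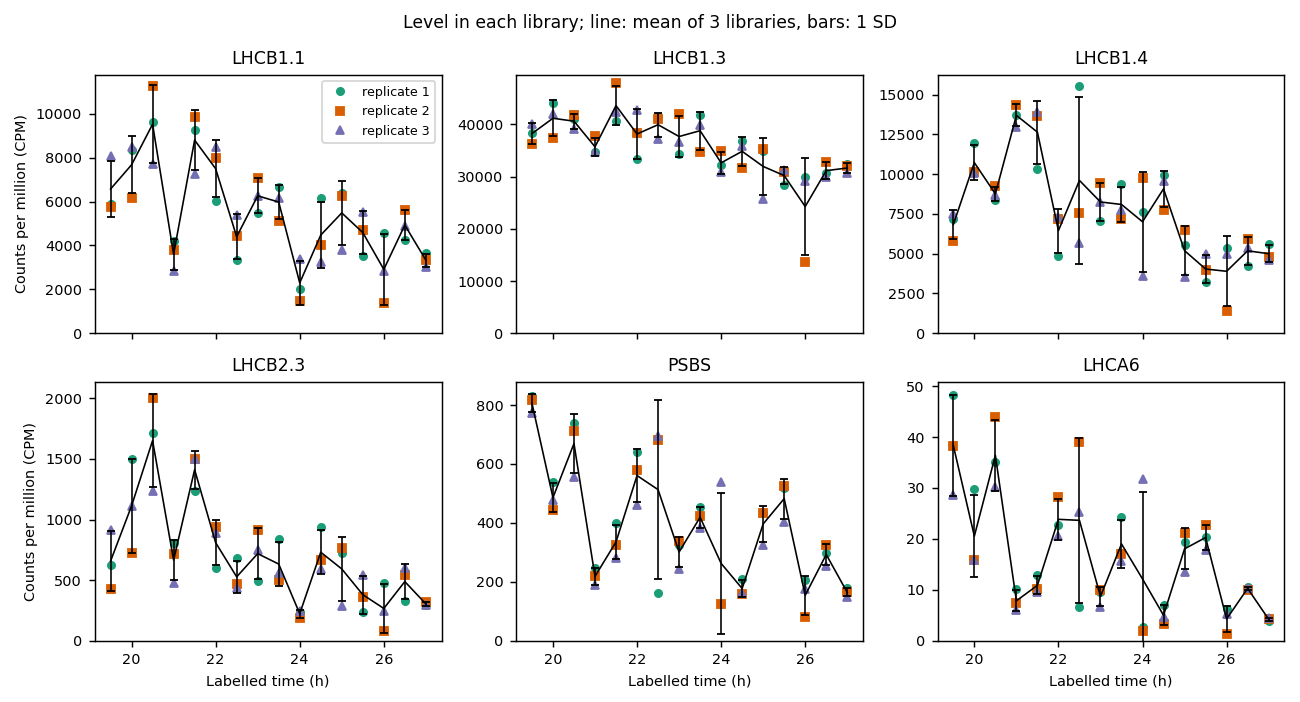
CPM in each library against labelled time (h) for 6 members; symbols are the 3 replicates, the line joins means and bars are 1 SD. At 21 h *LHCB1.1*, *PSBS* and *LHCA6* sit low (means 3603, 218 and 7.81 CPM) while *LHCB1.4* sits high (13692 CPM).

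The makeup of the *LHCB1* counts can be read within a library and does not depend on scaling. *LHCB1.3* held 51.4% ± 2.0 (SD, n = 3) of the summed CPM of the 5 genes at 19.5 h, 41.2% ± 0.95 at 21 h and 49.6% ± 1.7 at 27 h. *LHCB1.1* held 8.76% ± 0.97 at 19.5 h and 10.3% ± 1.4 at 20.5 h, then 4.15% ± 0.73 in the 21 h libraries and 5.20% ± 0.16 in the last ones. *LHCB1.4* went from 9.15% ± 0.86 at 19.5 h to 15.8% ± 0.081 at 21 h and 7.81% ± 0.44 at 27 h. In every one of the 3 libraries of 21 h the share of *LHCB1.4* was above and that of *LHCB1.1* below its values in every library of 20.5, 21.5 and 22 h. In the 22.5 h replicate 1 *LHCB1.4* had 16.1% and *LHCB1.1* 3.47%, close to the values of 21 h, against 10.7% and 8.51% and against 6.29% and 8.07% in its partners.

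**Figure D5:**
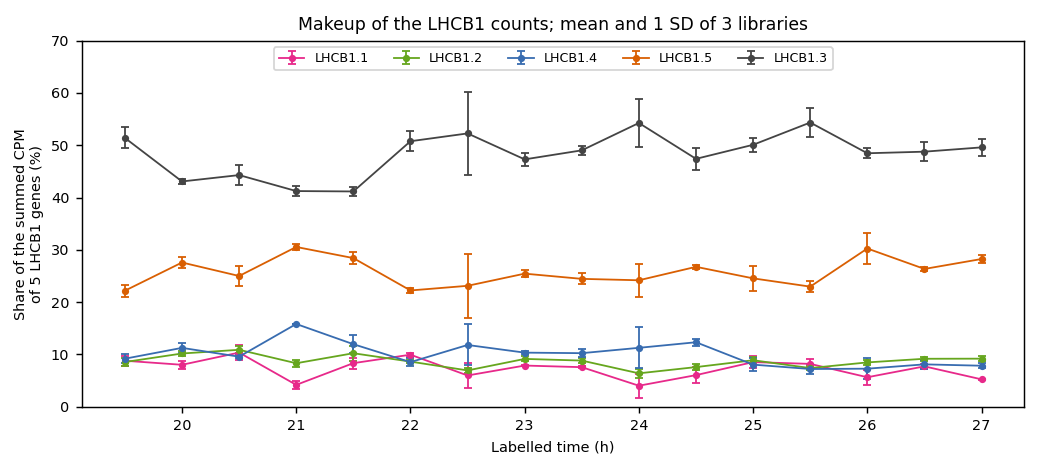
Share of the summed CPM of the 5 *LHCB1* genes (%) against labelled time (h), mean and 1 SD of 3 libraries. *LHCB1.4* reaches 15.8% at 21 h where *LHCB1.1* is at 4.15%, and the wide bars at 22.5 and 24 h hold the libraries that stand apart.

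*LHCB2.3* (AT3G27690) fell by 2.12 (SE 0.27), the second largest fall of the set. It was at 1714, 2005 and 1238 CPM at 20.5 h, at 237, 186 and 243 CPM at 24 h and at 295, 318 and 294 CPM at 27 h. The sister genes *LHCB2.1* (AT2G05100) and *LHCB2.2* (AT2G05070) fell by 1.27 (SE 0.14) and 1.32 (SE 0.18). Replicates of *LHCB2.3* were 428 to 915 CPM at 19.5 h, a wider spread than at 27 h.

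Paralogs were compared by the slow change of their ratio within a library, over 21 pairs of the same protein. The test permuted the 16 time points 100000 times, two-sided, with Benjamini-Hochberg adjustment over the 21 pairs. It was chosen after the values were seen, and pairs share genes. Permutation also treats the time points as exchangeable. Neighbouring points of a series can be alike, and the p-values may then be too small. Of the 21 pairs, 4 differed at an adjusted p under 0.05 and kept their sign without any 1 replicate number and without the 3 libraries above. The ratio of *LHCB2.2* to *LHCB2.3* rose by 0.85 on the log2 scale (SE 0.20, permutation adjusted p = 0.0081), and that of *LHCB2.1* to *LHCB2.3* rose by 0.90 (SE 0.28, permutation adjusted p = 0.030). The ratio of *LHCB1.4* to *LHCB1.5* fell by 0.66 (SE 0.20, permutation adjusted p = 0.030). *PSAE1* against *PSAE2*, copies of a stromal subunit near the ferredoxin docking site, fell by 0.49 (SE 0.11, permutation adjusted p = 0.0081). For *LHCB1.1* against *LHCB1.3* the change was -0.59 (SE 0.36, permutation adjusted p = 0.29), which did not pass.

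*LHCB3* (AT5G54270), the third LHCII subunit, fell by 1.32 (SE 0.16). The minor antenna genes *LHCB4.1* (AT5G01530, CP29), *LHCB4.2* (AT3G08940), *LHCB5* (AT4G10340, CP26) and *LHCB6* (AT1G15820, CP24) lay close together, from -1.07 to -1.19. *LHCB4.3* (AT2G40100), a rare CP29 form, was the least abundant member, with a mean of 5.42 CPM, and fell by 0.62 (SE 0.14). It was at 11.2, 8.57 and 8.19 CPM at 19.5 h, at 3.91, 3.15 and 3.55 CPM at 21 h and at 4.69, 4.19 and 3.69 CPM at 27 h.

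The 12 photosystem I subunit genes formed the narrowest class, with changes from -1.38 to -0.62 and a median of -0.996. *PSAN* (AT5G64040), a lumenal subunit beside the plastocyanin site, fell most, by 1.38 (SE 0.13), from 1509, 1396 and 1481 CPM at 19.5 h to 851, 718 and 674 CPM at 27 h. *PSAE1* (AT4G28750) followed at -1.28 (SE 0.11). *PSAK* (AT1G30380) and *PSAG* (AT1G55670), which flank the core on the antenna sides, fell by 1.26 and 1.02. *PSAF* (AT1G31330), the plastocyanin-docking subunit, fell by 1.095, and *PSAL* (AT4G12800), the most abundant of this class in CPM, by 0.84. *PSAD1* (AT4G02770) of the ferredoxin-docking subunit fell by 0.95. *PSAO* (AT1G08380), *PSAH1* (AT3G16140) and *PSAH2* (AT1G52230), whose proteins lie on the side where LHCII can dock, fell by 0.99, 0.93 and 1.002.

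The smallest changes in this class were those of *PSAE2* (AT2G20260), at -0.80 (SE 0.094), and *PSAD2* (AT1G03130), at -0.62 (SE 0.17). *PSAD2*, the second copy of the ferredoxin-docking subunit, was at 793, 636 and 1053 CPM at 19.5 h and 749, 806 and 850 CPM at 27 h. These libraries overlapped. At 20.5 h it stood at 1449, 1485 and 1049 CPM, at 21 h at 574, 703 and 508 CPM and at 21.5 h at 1214, 1425 and 1363 CPM. *LHCB1.1* was also low at 21 h.

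The 11 photosystem II genes had a median change of -1.09. *PSBS* (AT1G44575), the protein that senses lumen pH in energy-dependent quenching of excess light, fell by 1.77 (SE 0.23), and the next largest fall in its class was 1.25 (*PSBX*). It was at 833, 816 and 772 CPM at 19.5 h and 245, 218 and 190 CPM at 21 h. The 25.5 h libraries held 519, 524 and 404 CPM, and the last ones 177, 164 and 150 CPM. The libraries of 21 and 27 h lay below all those of 19.5 and 25.5 h. At 22.5 h it was at 161 CPM in replicate 1 and at 681 and 697 CPM in replicates 2 and 3, and at 24 h it was at 538 CPM in replicate 3 and at 124 and 124 CPM in the other two. *LHCA6* divided in the same way, with 6.68 against 39.01 and 25.2 CPM at 22.5 h and 31.8 against 2.60 and 1.92 CPM at 24 h. *LHCB1.4* divided in the opposite sense, with 15551 against 7562 and 5701 CPM at 22.5 h and 3612 against 7646 and 9768 CPM at 24 h.

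Of the oxygen-evolving subunits, which stabilise the manganese cluster on the lumenal side, *PSBO1* (AT5G66570) fell by 0.94, *PSBO2* (AT3G50820) by 1.19, *PSBP1* (AT1G06680) by 1.07 and *PSBQ1* (AT4G21280) by 1.02. *PSBQ2* (AT4G05180) had the smallest fall of all members, 0.57 (SE 0.11). It was at 3130, 2863 and 3242 CPM at 19.5 h, at 4769, 4630 and 4274 CPM at 21 h and at 3513, 3271 and 3381 CPM at 27 h. Here, in CPM, all libraries of 27 h lay above all of 19.5 h. CPM are scaled by library totals, whereas the fall was fitted with TMM factors. These factors averaged 0.96 at 19.5 h and 1.09 at 27 h, which lowers the 27 h values relative to those of 19.5 h.

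The genes of small photosystem II proteins lay between -0.88 and -1.25. *PSBX* (AT2G06520) fell by 1.25 (SE 0.13), *PSBTN* (AT3G21055) by 1.11, *PSBY* (AT1G67740) by 1.09 and *PSBR* (AT1G79040) by 0.88, and *PSBW* (AT2G30570) fell by 1.102. *PSBX* went from 1991, 1862 and 1986 CPM at 19.5 h to 1280, 1200 and 1096 CPM at 27 h, without overlap.

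Variation within the window, beyond the slow trend, was then divided by period. Any difference between time points was found for all 43 members, against 63.8% of tested genes. The study looked for the excision UR at periods of 2 to 5 h. The joint test here used terms at periods of 4, 2.67 and 2 h, so periods between 4 and 5 h had no term of their own, and it is called 2 to 4 h variation. It was called in 2 members, *LHCA5* (edgeR adjusted p = 0.040) and *LHCB4.3* (edgeR adjusted p = 0.031). The share over all tested genes was 6.56%, so 2 of 43 is no more than the background. At an unadjusted p under 0.05 there were 6 members, which also took in *LHCB1.4*, *LHCB1.5*, *PSBQ2* and *PSBS*.

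The cosine that fitted *LHCA5* best had a period of 2.9 h and a log2 amplitude of 0.20, and for *LHCB4.3* the values were 2.9 h and 0.26. *LHCA6* and *PSBS* had the largest amplitudes, 0.56 and 0.45, both at 2.8 h, but adjusted p-values of 0.21 and 0.090 in edgeR. For *LHCB1.1* the best period was 2.4 h with an amplitude of 0.20, it held 5.75% of the variance left after the trend, and the edgeR adjusted p was 0.42. A best period was fitted to every member and is a description. Some lay at 2 h, the edge of the scan, as for *LHCA2* and *LHCB2.1*.

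The count of 2 rested on few libraries. With replicate 1 of 22.5 h and replicate 3 of 24 h left out it was 8 members, and 30.6% of tested genes. Without the 26 h replicate 2 as well it was 16 members (4 *LHCA*, 3 *LHCB*, 4 *PSA* and 5 *PSB* genes, *LHCA6*, *LHCB1.4* and *PSBS* among them), and 36.0% of tested genes. Leaving out 1 replicate number or 1 time point gave 0 to 8 members.

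Variation faster than 2 h was called in 36 members, against 35.6% of tested genes. The 7 members that did not pass were *LHCB1.3*, *LHCB1.4*, *PSAE2*, *PSAO*, *PSBR*, *PSBX* and *PSBTN*. The smallest adjusted p-values belonged to *LHCB2.1* (6.1e-04) and *LHCB1.1* (6.9e-04, edgeR). With samples 0.5 h apart, such variation means steps between neighbouring time points, as at 20.5, 21 and 21.5 h in *LHCB1.1* and *PSAD2*. All 43 members passed without the 3 libraries that stood apart (44.9% of tested genes). Without replicate 2 throughout none passed (26 at an unadjusted p under 0.05, and 27 of all genes by the same test), without replicate 1 it was 20 and without replicate 3 it was 14.

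All 9 electron transport genes fell, with a median of -0.87, and the largest falls were those of *PETE2*, plastocyanin, at -1.10 (SE 0.13) and *ATPG*, a subunit of the ATP synthase, at -1.06 (SE 0.11). Of 4 genes that import or insert antenna proteins 3 fell. *CAO*, the chloroplast signal recognition particle subunit cpSRP43, changed by -0.71 (SE 0.11) and the insertase gene *ALB3* by -0.32 (SE 0.064), whereas cpSRP54 at -0.11 (edgeR adjusted p = 0.33) did not pass. With library totals all 9 electron transport genes still fell, but the import and insertion list then held 1 rise and 1 fall, with *ALB3* at -0.01 and the receptor gene *cpFtsY* turned to 0.13, neither of them past the test.

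All 5 regulatory genes fell, and 3 of them with library totals, where *GLK1* at -0.13 did not pass and the phosphatase gene *TAP38* turned from -0.29 to 0.02. The kinase gene *STN8*, which acts on photosystem II core proteins, changed by -0.76 (SE 0.12), and the transcription factor gene *GLK2*, an activator of antenna genes, by -0.61 (SE 0.091). *GLK1*, its partner, changed by -0.44 (SE 0.11) and was the 1 gene of this list called for 2 to 4 h variation (edgeR adjusted p = 0.026). Of 5 stress relatives of the antenna proteins 4 were tested and fell, led by *ELIP1* at -1.17 (SE 0.16) and *OHP1* at -1.12 (SE 0.15), and *ELIP2* was below the filter.

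Among 20 plastid-encoded photosystem genes 10 fell and 6 rose, with changes from -1.47 (ATCG00570) to 1.86 (ATCG00510). These ends were rare transcripts, with means of 1.03 and 2.90 CPM. The 6 genes that rose had means of 2.90 to 6.93 CPM, and the 10 that fell had means of 1.03 to 246 CPM. With library totals 8 fell and 8 rose, where 9.31% of all tested genes fell and 62.7% rose. Plastid transcripts took 0.152% to 0.688% of a library. Whether these counts follow the level of plastid RNA was not tested.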

How the data were processed

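RNA sequencing (Illumina HiSeq) of 48 libraries of excised leaves, 16 time points with 3 replicates each, was analysed. The authors used FastQC for quality control and trimming, STAR for mapping to TAIR10 and HTSeq for counting (versions not given in the sources used here). They deposited raw, whole-number counts per gene for 34262 genes. The table's 1 other column of values is a row index of no sample and was left out. The sources used here do not give the strand setting or how reads that fit several genes were handled.

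Time point and replicate number came from the sample titles. Nothing says whether replicates came from separate plants or plates, so the spread behind the p-values is that between these libraries and may be technical. No 2 libraries held identical counts. Library totals ran from 23572988 to 38763552. The members and gene lists were chosen with earlier results of these data known.

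CPM were computed from the deposited counts. The 17568 genes averaging 1 CPM or more entered edgeR 4.0.16 (R 4.3.3) with TMM scaling, glmQLFit and glmQLFTest, the replicate number as a factor as in the study's methods for differential expression, and 15 orthonormal time terms: linear, quadratic, cosine and sine at periods of 4, 2.67 and 2 h, and 7 faster terms. Benjamini-Hochberg adjustment covered all tested genes, with a threshold of 0.05. MetaCycle, used by the authors for periods of 2 to 5 h, was not used here. Cosines were fitted to log2(CPM + 1), with the period stepped by 0.1 h between 2 and 5 h. Levels per length (RPKM), identities and upstream sequences used RefSeq TAIR10.1, whose coordinates are not printed since the authors used TAIR10. The fits were first tested on simulated data.

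Genes given with values were, in each class, the pairs with the largest and smallest signed slow change, the smallest p for 2 to 4 h variation, the highest mean CPM, the *LHCB1* and *LHCB2* genes and *LHCB1.1*; other members are given by their change, and per-library values were added for members with steps that the plots show. Of the other lists, the pair of genes with the largest absolute change per class is named, and *GLK1* and cpSRP54 were added after their values were seen. Guard cell, epidermis, vasculature and senescence markers were also summed per library: they ran from 56.8 to 91.6, 171 to 525, 299 to 654 and 248 to 1850 CPM. Of these lists 1 of 6 tested guard cell genes rose and 3 fell, 3 of 3 epidermis genes fell, 4 of 6 vasculature genes fell, and 2 of 3 senescence genes rose. With library totals, under which 62.7% of all tested genes rose and 9.31% fell, 3 guard cell genes rose and 0 fell, 2 epidermis genes fell, 1 vasculature gene rose and 3 fell, and 2 senescence genes rose. The epidermis genes *CER1* and *PDF1* were below the filter. Alternatives were RLE (DESeq2-type) and library-total scaling, other filters, no replicate factor, each replicate number or time point left out, 2 or 3 libraries left out, DESeq2 1.42.0, limma-voom 3.58.1 and a model with only the linear term.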

Additional observations from a re-analysis of the deposited data

How the results depend on the processing

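The slow fall of the members was called for 43 of 43 genes under RLE scaling, both other filters, no replicate block, DESeq2, limma-voom and the linear model alone, and without any replicate number or time point; library totals gave 42. Its median, -1.07, was -0.76 with library totals and -1.11 to -1.01 without 1 replicate number. No member's slope changed sign in any of these settings.

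The 2 members called for 2 to 4 h variation became 1 without a filter, 4 with DESeq2, 8 with replicate 1 of 22.5 h and replicate 3 of 24 h left out, and 16 without those and the 26 h replicate 2 (an alternative chosen after the data were seen); leaving out a replicate number gave 0 to 4 and a time point 0 to 8. Over all genes this count was 1152, 1808 with no replicate block, 703 without a filter, 1006 with library totals, 3294 with DESeq2, 5379 and 6307 without those 2 and 3 libraries, and 0 without replicate 2. Variation faster than 2 h, called in 36 members, was called in 0 to 20 without 1 replicate number and in 9 to 40 without 1 time point. The cause was not tested.

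Deviations of same-numbered libraries of different time points had a median r of -0.065 over 360 pairs, across genes, against 0.037 for other numbers. Each deviation was taken from the mean of its own time point, so these medians depend on each other. Same-numbered pairs ran from -0.76 to 0.77, and what the number stands for cannot be told from this. With no replicate block 43 members fell, 2 were called for 2 to 4 h variation and 39 for faster variation. Fitted amplitudes with a pseudocount of 0.5 differed by less than 10% from those with 1. Rare members (*LHCB4.3*, *LHCA6*) rest on the fewest reads.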
